A study of Mus musculus with 6 samples.

Results

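The letter-prefixed RIKEN clone genes are mouse transcripts that still carry the name of a full-length cDNA clone, made of a letter from A to I, 6 digits, a letter, 2 digits and the ending Rik. They were taken as all gene names of this form among the non-control sequences of the array, and each name was summarised by its sequence with the highest mean signal over the 6 arrays. The rule used no measured difference. It found 683 of 34844 gene names, carried by 797 of 55681 array sequences. The study measured whole testes of male C57BL/6 mice aged 5 months: 3 wild-type (WT) mice and 3 AROM+ mice, which overexpress aromatase from a transgene, with 1 testis per array. The labels do not state the promoter of the transgene. Total RNA was labelled with Cy3 and hybridised to one-colour Agilent arrays.

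RIKEN clone names record the cDNA library, so the first 4 characters of a name point to the tissue that the clone was made from. Many of these clones were later found to belong to protein-coding genes and were renamed, while others remain as long noncoding RNAs (lncRNAs) or have no RefSeq entry. Aromatase converts androgens to oestrogens, and testes of mice with excess aromatase are known for changes in Leydig cells, macrophages and germ cells. Each prefix was given the library tissue that clearly most of the array's own descriptions of clones with that prefix name. This gave a tissue for 669 of the 683 members, over 51 of 57 prefixes, and none of these tissues is the testis. By prefix, 317 members come from nervous system or eye, a group that here includes inner ear. Another 126 come from other embryonic or neonatal tissue, 80 from thymus, 45 from embryo head and 33 from other adult tissue or a cell line. A further 28 come from ovary, oviduct or uterus, 22 from immune cells, and 18 from aorta and vein.

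The array sequences of the noncoding members on which the results turn are shown to make plain what was measured. Positions are those of the array files on mm9, and each sequence has 60 bases. The first 4 come from transcripts that were higher in AROM+ and the last 3 from transcripts that were lower. Capitals in C430049B03Rik mark letters that match a polyadenylation signal (ATTAAA), whose use was not tested. In D330041H03Rik they mark the 50 bases that are the reverse complement of the array sequence for Abca3.
A530020G20Rik, chr3:121238269-121238328, plus strand: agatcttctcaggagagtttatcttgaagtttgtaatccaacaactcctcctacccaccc
C430049B03Rik, chrX:50409370-50409429, minus strand: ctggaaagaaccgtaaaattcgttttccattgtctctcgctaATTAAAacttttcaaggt
D330041H03Rik, chr17:24547069-24547214, minus strand: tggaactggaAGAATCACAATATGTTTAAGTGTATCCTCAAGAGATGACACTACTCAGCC
B130024G19Rik, chr7:77555944-77556003, plus strand: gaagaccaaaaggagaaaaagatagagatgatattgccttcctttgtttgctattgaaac
A630010A05Rik, chr16:14589314-14589373, plus strand: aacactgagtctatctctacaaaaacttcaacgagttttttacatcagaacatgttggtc
C230004F18Rik, chrX:58428515-58428574, plus strand: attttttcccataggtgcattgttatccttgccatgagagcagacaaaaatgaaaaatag
E330013P04Rik, chr19:60238005-60238065, plus strand: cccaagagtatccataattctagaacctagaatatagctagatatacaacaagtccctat

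Levels are log2 of the processed signal minus the 75th percentile of the array, so a difference of 1 is a 2-fold change, and every difference is AROM+ minus WT. A member counts as detected in a group when all 3 arrays marked it as well above background, and it was tested when it was detected in at least 1 group. The 6 arrays share a slide, on which each genotype fills a row of its own, and so the effect of position on the slide cannot be told apart from that of genotype. Correlations between arrays were 0.994 to 0.996 within WT, 0.988 to 0.992 within AROM+ and 0.961 to 0.983 between the groups, and no spot was saturated. Marker lists for testicular cells were also counted, where the background over all gene names tested was 14.6% higher and 31.3% lower. Higher in AROM+ were 7 of 9 macrophage, 5 of 7 vascular endothelial and 4 of 7 peritubular and fibroblast markers. So were 3 of 6 Leydig, 3 of 8 Sertoli, 2 of 7 spermatogonial and 1 of 6 lymphocyte markers. The lymphocyte share lies near that background, and the median difference of the spermatogonial markers was 0.00. Of the spermatid markers 6 of 9 were lower and of the spermatocyte markers 4 of 7, and 1 macrophage, 1 endothelial, 1 spermatogonial and 1 lymphocyte marker were lower, among them Csf1r at −0.44. In whole testes, fewer cells of a type and less RNA per cell cannot be told apart. The labels name single testes, so p-values measure the spread between these testes.

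Although no library with a named tissue was a testis library, most members gave signal in the testis. In WT 62.8% of members were detected and in AROM+ 63.0%, against 82.1% and 80.9% of all gene names. Of 2 other RIKEN series, whose clones came from testis libraries, the smaller one of 391 names was detected in WT at 94.9% and the larger one of 722 names at 91.7%. A further 230 members were detected in neither group, 23 were detected on all arrays of WT alone, and 24 on all arrays of AROM+ alone. This left 453 members for the test.

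Among the tested members, 75 were higher and 123 were lower in AROM+ at an adjusted p under 0.05 (limma with Benjamini-Hochberg adjustment over all 28917 gene names tested). These are 16.6% and 27.2% of the tested members, and the background over all gene names was 14.6% higher and 31.3% lower. The members' shares lie near that background and are not a result about the members. The groups did not overlap for 54.3% of the members, with a background of 59%. The median difference was −0.15 for the members and −0.19 for all gene names, and the 10th and 90th percentiles of the members' differences were −0.60 and 0.73. Without WT replicate 1 the count of lower members was 76, and without WT replicate 3 it was 68. The median was −0.07 without AROM+ replicate 1.

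The same comparison in the 2 testis-library series is given beside this. Of the 371 tested genes of the smaller series, 3 were higher and 276 were lower, with a median difference of −0.46. Of the 662 tested genes of the larger series, 15 were higher and 457 were lower, with a median of −0.52. The difference between these series and the letter-prefixed clones was not tested.

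**Figure D1:**
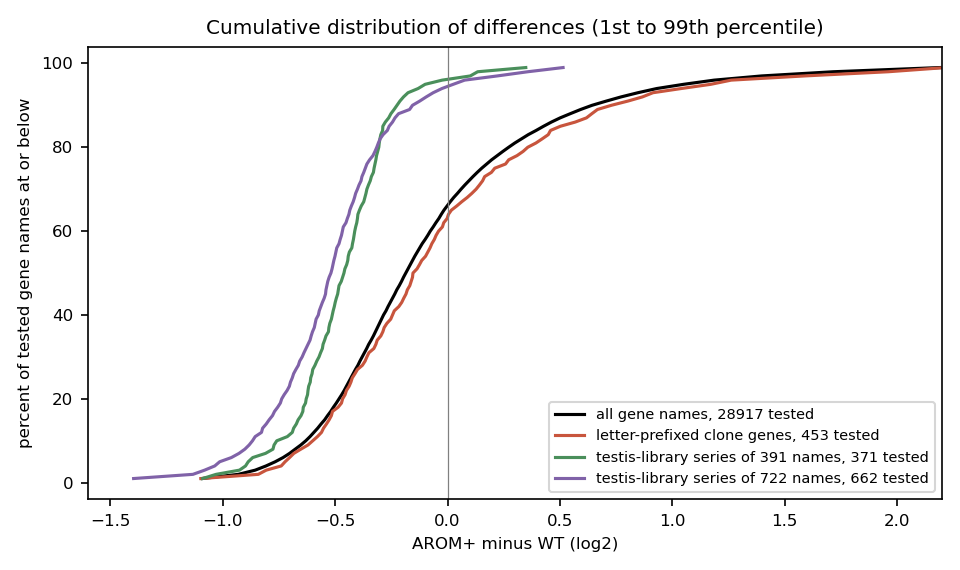
Cumulative distribution of the log2 difference (AROM+ minus WT, x axis) for tested gene names, with the percent of names at or below each difference on the y axis. The curve of the letter-prefixed clone genes (median −0.15) runs close to that of all gene names (median −0.19), while the curves of the testis-library series of 391 names (median −0.46) and 722 names (median −0.52) lie to the left.

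Of the members, 29 were called and at least 2-fold higher, where the background was 5.02%, and 6 were called and at least 2-fold lower, where the background was 1.36%. These are 6.4% and 1.32% of the tested members, close to the background. With normexp background correction these counts were 18 and 1, and with only members detected on all 6 arrays they were 20 and 3. Of the 29, 16 are protein-coding genes in RefSeq, 5 are lncRNAs, 7 have no RefSeq match and 1 is a transcribed pseudogene. None of the 6 is protein-coding. The 453 tested members hold 153 protein-coding genes, 130 lncRNAs, 159 without a match and 11 of other classes. Their median WT level was −2.53 for protein-coding members, −4.15 for lncRNAs and −4.42 for unmatched members. A difference between the classes was not tested.

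**Figure D2:**
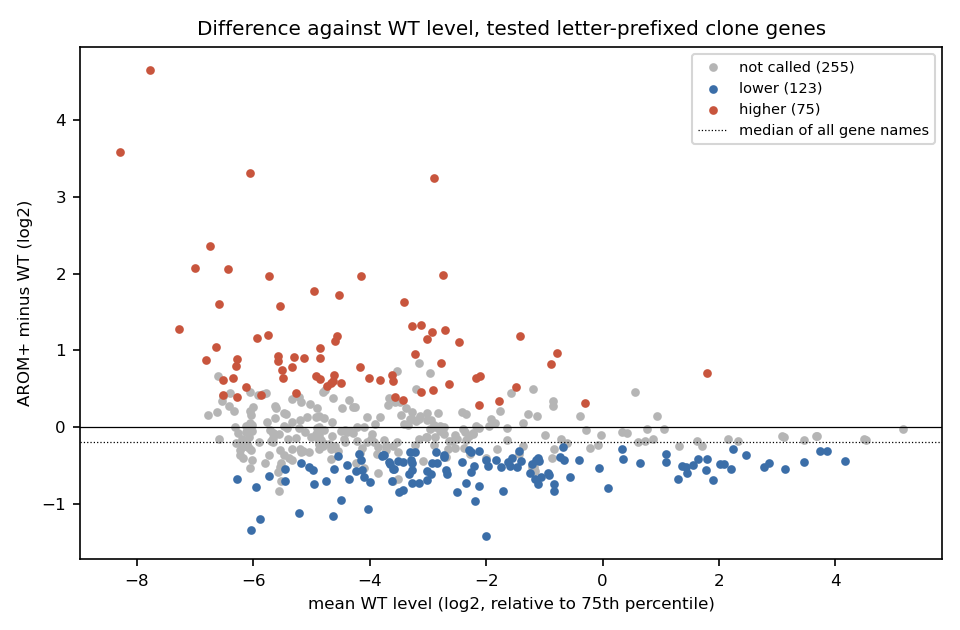
Log2 difference (AROM+ minus WT, y axis) against the mean WT level (x axis, log2 relative to the 75th percentile of the array) for the 453 tested members, 1 point per member. The 75 members called higher reach 4.65 and the 123 called lower reach −1.42, and the dotted line marks the median of all gene names at −0.19.

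The members with the largest differences at detectable levels on every array were 2 genes first cloned from spinal cord. Pianp (clone C530028O21Rik), whose product is a ligand of the paired receptor PILR alpha, read −6.11, −6.20 and −5.84 in the WT testes and −2.65, −3.72 and −1.85 in the AROM+ testes. The groups did not overlap, and the difference was 3.31 ± 0.43 (SE, n = 3 and 3), a 9.92-fold rise with a limma adjusted p of 0.00419. With normexp background correction the difference was 2.36. Akain1 (A330050F15Rik), an inhibitor of A-kinase anchoring, read −3.21, −2.18 and −3.30 in WT and 0.95, −0.61 and 0.70 in AROM+. It rose by 3.24 ± 0.47 (limma adjusted p = 0.00501). Zfp384, the nearest other gene to Pianp on the array, went the other way, at −0.64.

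Tor4a (A830007P12Rik), an ATPase of the torsin family, was next among the called members detected on all 6 arrays whose groups did not overlap. It read −2.81, −2.40 and −3.005 in WT and −0.34, −0.83 and −1.09 in AROM+. The difference was 1.98 ± 0.23 (limma adjusted p = 0.00361). Cped1 (A430107O13Rik), cloned from neonatal thymus, read −4.24, −3.97 and −4.27 in WT and −1.93, −2.11 and −2.52 in AROM+. Its difference of 1.97 ± 0.17 (limma adjusted p = 0.00238) was matched by its other array sequence, at 1.84. The neighbouring gene Wnt16, a secreted Wnt ligand, had a difference of 1.06 that did not pass the test (limma adjusted p = 0.0667).

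Several members with no other name also rose. A630001G21Rik, a coding gene beside Sp100, read −5.62, −5.89 and −5.70 in WT and −2.96, −4.36 and −3.98 in AROM+. It rose by 1.97 ± 0.34 (limma adjusted p = 0.00677), or 1.34 with normexp background correction, and its other array sequence gave 1.80. Sp100, a nuclear body protein on the opposite strand, was higher by 0.81 (limma adjusted p = 0.0181). C130026I21Rik read −3.06, −3.37 and −2.89 in WT and −1.06, −2.38 and −1.91 in AROM+, a difference of 1.33 ± 0.33 (limma adjusted p = 0.018). Its other 2 array sequences gave 0.38 and 0.33, the mean of all its sequences 0.68, and without WT replicate 2 its adjusted p was 0.0519.

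The unmatched clone B430105G09Rik, from neonatal adipose tissue, had the smallest standard error of the 10 largest rises, with levels of −4.47, −4.57 and −4.55 in WT and −2.72, −2.64 and −3.06 in AROM+. The difference was 1.72 ± 0.13 (limma adjusted p = 0.00193). A330094K24Rik, a lncRNA from a spinal cord library, rose by 1.57 ± 0.31 (limma adjusted p = 0.00916). Its array sequence is shared with another noncoding locus of the array, so the signal cannot be given to either of them.

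Among the lncRNAs whose array sequences are printed above, C430049B03Rik spans the microRNA genes Mir322, Mir351 and Mir503. It read −5.01, −4.53 and −5.33 in WT and −2.94, −3.33 and −3.28 in AROM+, a rise of 1.77 ± 0.22 (limma adjusted p = 0.00386). D330041H03Rik, on the strand opposite to the lipid transporter gene Abca3, read −3.30, −2.89 and −3.62 in WT and −1.75, −1.99 and −2.13 in AROM+. It rose by 1.31 ± 0.20 (limma adjusted p = 0.00539) and Abca3 by 1.03. The labels do not say whether the labelled cDNA kept its strand, so these 2 signals cannot be told apart. B130024G19Rik, whose span overlaps Nr2f2, the gene of a nuclear receptor of steroid-producing and interstitial cells, rose by 1.13 ± 0.13 (limma adjusted p = 0.00361). D330041H03Rik and B130024G19Rik were singled out after their values were seen.

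Members that were well above background in AROM+ alone have only a bound in WT. They entered the test only through AROM+, where they are high, so their adjusted p-values are not support for a rise. The bound sets the AROM+ mean against the higher of the lowest signal called above background and the member's own signal in WT. D630039A03Rik, a coding gene cloned from neonatal kidney, read −7.85, −7.53 and −7.95 in WT, not well above background on any array, and −1.11, −3.96 and −4.31 in AROM+. It was at least 14.8-fold higher (limma adjusted p = 0.00671), and the AROM+ replicate 1 testis stood well above the other two. Its fitted difference of 4.65 was 3.65 without that testis and 2.52 with normexp background correction, each smaller than the bound. A530020G20Rik, the lncRNA from aorta and vein, was at least 4.97-fold higher, with AROM+ levels of −4.71, −4.90 and −4.49 (limma adjusted p = 0.00146). With normexp its fitted difference was 1.33 in place of 3.59, below that bound. D930027P08Rik was at least 1.91-fold higher, its call was lost in 5 of 15 alternative analyses, and with normexp its difference was 0.31.

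The deepest falls belonged to transcripts with little annotation. A630010A05Rik, a lncRNA cloned from neonatal thymus, read −1.98, −2.15 and −1.86 in WT and −3.12, −3.25 and −3.88 in AROM+. It fell by 1.42 on the log2 scale (SE 0.21, limma adjusted p = 0.00505), which is 2.67-fold lower, with no overlap between the groups. C230004F18Rik, now Cdr1os, a noncoding transcript best known in brain, read −4.42, −3.90 and −3.78 in WT and −5.32, −4.97 and −5.02 in AROM+. Its difference was −1.07 ± 0.19 (limma adjusted p = 0.00722).

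E030046B03Rik had a difference of −1.16 ± 0.30 (limma adjusted p = 0.0221), and its call was lost without WT replicate 1 or WT replicate 2, where the adjusted p reached 0.0629. Fndc9 (C030019I05Rik), a fibronectin type III domain protein, fell by 0.95 on the log2 scale, and G630022F23Rik fell by 0.97. The other members of the 10 largest falls, A530088E08Rik, G430049J08Rik, A930038B10Rik, A930006D01Rik and B930036N10Rik, had differences from −0.85 to −0.82. The call of G430049J08Rik was lost without WT replicate 3 (limma adjusted p = 0.0647). A930006D01Rik lies opposite the zinc finger gene Zfp90, which was higher by 0.70.

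A bound also holds for 4 members detected in WT alone. E130202H07Rik was at least 1.88-fold lower in AROM+, E330013P04Rik, a lncRNA from ovary, at least 1.77-fold, D130062J21Rik at least 1.61-fold and A330074H02Rik at least 1.52-fold. Their WT levels lay between −6.48 and −5.57. With normexp background correction these bounds did not hold: the fitted differences were −0.49 for E130202H07Rik and for E330013P04Rik, −0.38 for A330074H02Rik and −0.36 for D130062J21Rik, whose call was lost.

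**Figure D3:**
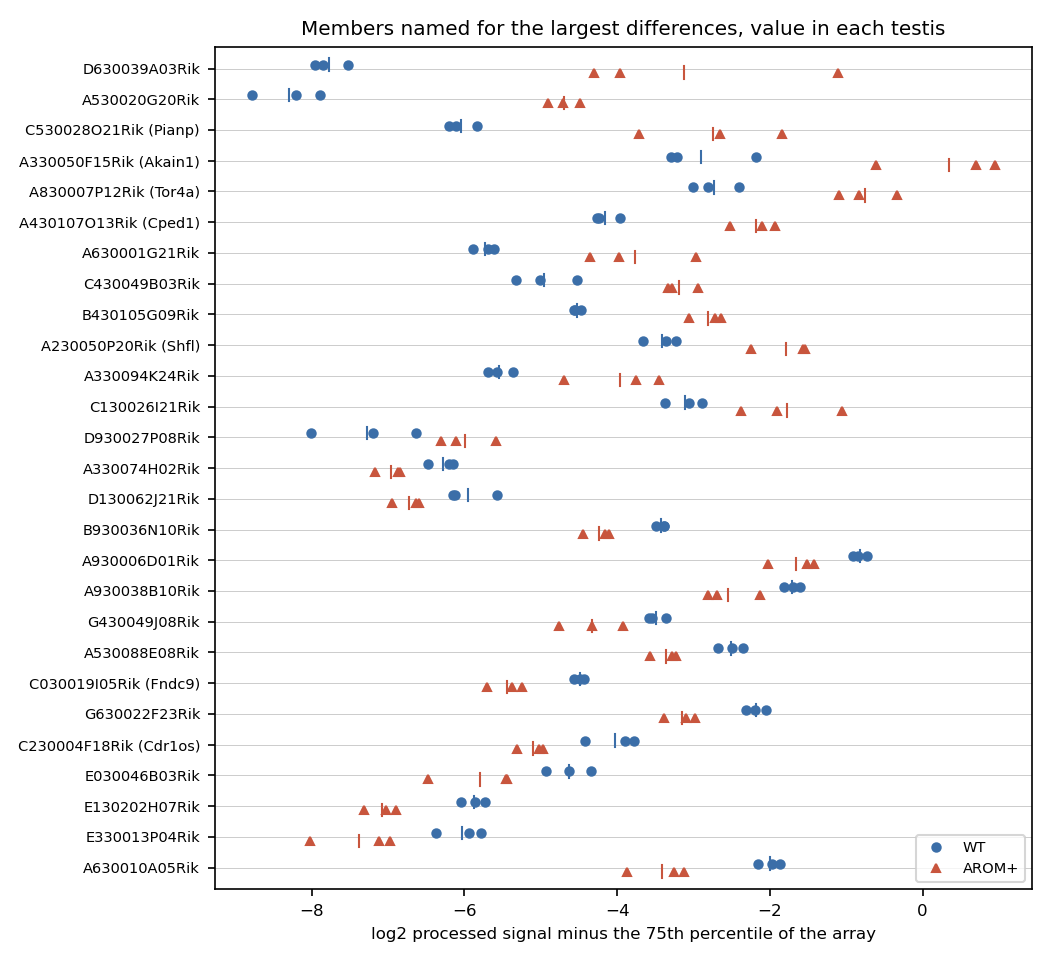
Level in each testis (log2 processed signal minus the 75th percentile of the array, x axis) for the 27 members named for the largest differences or bounds, with WT as circles, AROM+ as triangles and a vertical tick at each mean. In each of them the 3 WT values lie apart from the 3 AROM+ values, and the widest spread is that of D630039A03Rik, from −4.31 to −1.11 in AROM+.

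Protein-coding members, most of them renamed, were grouped by what their products are known to do. These groups were formed after the values were seen, hold every member recognised as fitting them, and carry no test of their own. Their counts are to be read against the background of 14.6% higher and 31.3% lower over all gene names. Of 9 genes of cilia and the sperm tail, 8 were tested, 6 fell and none rose, with a median difference of −0.37. Ccdc180 (E230008N13Rik), found in the sperm tail, read 1.48, 1.43 and 1.46 in WT and 0.88, 0.86 and 0.83 in AROM+, with a difference of −0.60 ± 0.08 (limma adjusted p = 0.00427). Cfap46, of the central apparatus of motile cilia, had −0.48 ± 0.09, Enkd1, a microtubule-binding protein, −0.45 ± 0.09, and Stpg2, a sperm-tail repeat protein, −0.43 ± 0.10. Cfap69 of the sperm flagellum and Iftap, a partner of intraflagellar transport, had −0.32 and −0.31. Tbc1d32 and Dnaaf6b, a dynein arm assembly factor, had −0.19 and −0.15 and did not pass the test.

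The count for this group moved with the scaling: with quantile normalization 3 of the 8 passed, and without WT replicate 1 or WT replicate 3 also 3, while all kept a value below 0 under every alternative. The summed signal of the spermatid markers, in multiples of the 75th percentile of each array, was 205 to 278 in WT and 173 to 182 in AROM+, and that of the spermatocyte markers 41.2 to 42.2 and 33 to 36.2. Their part in the result was not tested.

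Of 6 genes of the endosome and secretory pathway, 4 rose and 1 fell, where the background was 14.6% and 31.3%. In most alternatives 3 rose and none fell. Washc5 (E430025E21Rik) and Washc4 (A230046K03Rik) are subunits of the WASH complex, which nucleates actin on endosomes. Washc5 read −0.77, −0.82 and −1.06 in WT and 0.06, −0.09 and −0.13 in AROM+, a rise of 0.82 ± 0.11 (limma adjusted p = 0.00452), and Washc4 rose by 0.64 ± 0.11 (limma adjusted p = 0.00656). Hid1 (C630004H02Rik), needed for dense core granules, rose by 1.26 ± 0.15 (limma adjusted p = 0.00372), with WT levels from −2.79 to −2.62 and AROM+ levels from −1.75 to −1.21. Ric1, an activator of Rab6, had 0.29 and Trappc11, of the TRAPP tethering complex, −0.25, and each was called in only 4 of 16 alternatives. Ap5z1 of the AP-5 adaptor had −0.02.

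Of 5 genes linked to interferon or to nucleic acid sensing, 3 rose and 1 fell, against the same background of 14.6% and 31.3%. The count of rises was 2 when replicate 1 or replicate 2 of either genotype was left out. Shfl (A230050P20Rik), an interferon-induced antiviral inhibitor of ribosomal frameshifting, read −3.23, −3.36 and −3.66 in WT and −1.54, −2.25 and −1.57 in AROM+. It rose by 1.63 ± 0.22 (limma adjusted p = 0.00433), and Angptl6, which overlaps it on the other strand, by 0.77. C330007P06Rik, the gene of a factor for export of STING from the endoplasmic reticulum, rose by 0.97 ± 0.14 (limma adjusted p = 0.00474), although its other 2 array sequences gave 0.18 and 0.90.

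Ifit3b (I830012O16Rik), an interferon-induced tetratricopeptide protein, read −3.35, −2.95 and −2.74 in WT and −1.39, −1.65 and −2.54 in AROM+. The difference was 1.15 ± 0.31 (limma adjusted p = 0.0238), and its other array sequence gave 1.05. The call was lost in 6 of 16 alternatives, among them those that left out replicate 1 or replicate 2 of either genotype, with adjusted p-values up to 0.0733. F830016B08Rik, of the interferon-inducible GTPases, had a difference of 0.07 with a 95% interval from −1.05 to 1.18.

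The cytosolic DNA sensor Cgas (E330016A19Rik) went the other way, from 1.44, 1.64 and 1.58 in WT to 1.05, 0.93 and 1.20 in AROM+. Its difference was −0.50 ± 0.11 (limma adjusted p = 0.0121), but its other array sequences gave 0.40 and −0.27, and with the mean of its sequences the adjusted p was 0.417. The immune adaptor Scimp (A430084P05Rik), picked after its value was seen, rose by 2.07 ± 0.60 (limma adjusted p = 0.0296). Scimp is not among the largest rises named above, which had to be detected on every array with no overlap between the groups. Scimp was therefore not detected on every array, or its groups overlapped. Which of these holds is not given here, so its adjusted p is not taken as support for the rise. The summed signal of the macrophage markers was 31.9 to 45.4 in WT and 50.2 to 63.8 in AROM+, and its part in these results was not tested.

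The promoter of Ifit3b holds 2 copies of the ISRE core (GAAANNGAAA on either strand), the kind of element that interferon-activated factors bind. They start 188 and 154 bases before the RefSeq start, and the stretch around them on GRCm38.p6 is shown on the gene's strand with the copies in capitals.
Ifit3b promoter, chr19:34607749-34607832, plus strand: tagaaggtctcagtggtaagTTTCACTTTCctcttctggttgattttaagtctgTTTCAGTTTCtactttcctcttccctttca

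A promoter window, from 250 bases before to 50 after the start, was found for 321 members in RefSeq's GRCm38.p6 table. The ISRE core was in the windows of 2 of 36 members called higher (5.56%) and 2 of 81 called lower (2.47%), against 3.99% of the 27025 genes in the table. The CRE (TGACGTCA) was in 2 and 3 of them, with 2.03% over the table, and the PU.1 motif (GAGGAAGT) in 3 and 3, with 3.69%. The full oestrogen response element (GGTCANNNTGACC) was in none, with 0.074% over the table. A match of letters is a description and not a binding site.

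Of 6 genes for DNA repair and chromosome segregation, 2 fell and none rose, which is near the background of 31.3% lower. Without WT replicate 3 or AROM+ replicate 3 none passed, and without any of the other testes 1 did. Hjurp (A730008H23Rik), the chaperone of the centromeric histone CENP-A, had −0.51 ± 0.15 (limma adjusted p = 0.0286), and Faap24, of the Fanconi anaemia pathway, −0.41 ± 0.12 (limma adjusted p = 0.0341). The call of Hjurp was lost in 4 of 16 alternatives and that of Faap24 in 5 of 16. Radx, Cip2a, Ska3 and Rmi2 had values from −0.14 to 0.25 and did not pass the test. Of 3 zinc finger genes, Zfp607b and Zfp729a fell, at −0.56 and −0.40, and Zfp972 had −0.28. The other array sequence of Zfp729a gave 0.43.

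**Figure D4:**
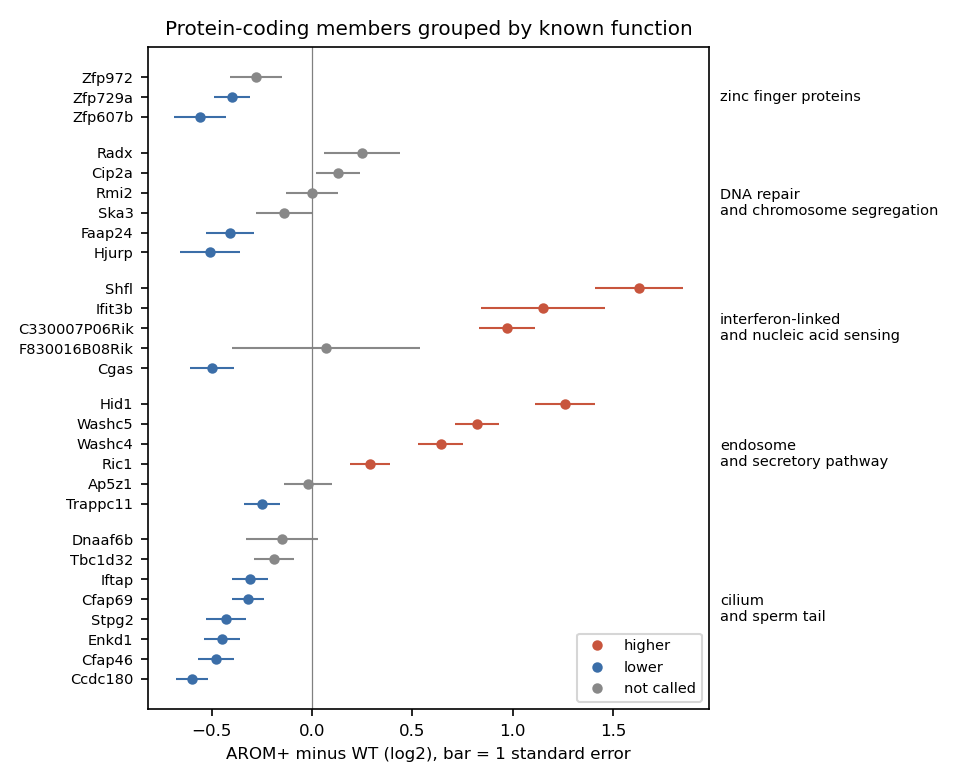
Log2 difference (AROM+ minus WT, x axis) with 1 standard error for 28 tested protein-coding members in 5 groups by known function, coloured by call. The cilium and sperm tail genes lie between −0.60 and −0.15, while Shfl at 1.63 and Hid1 at 1.26 stand at the upper end.

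In each of the 4 largest library groups more members were lower than higher, as over all gene names (14.6% higher and 31.3% lower). Of 210 tested members from nervous system and eye, 32 were higher and 55 lower, of 73 from other embryonic or neonatal tissue 12 and 24, of 65 from thymus 13 and 16, and of 27 from embryo head 5 and 8. The medians of these groups lay between −0.16 and −0.10. Of 20 tested members from ovary, oviduct and uterus, 1 was higher and 7 were lower, and of 12 from immune cells 2 and 1. No difference between library tissues was tested.

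**Figure D5:**
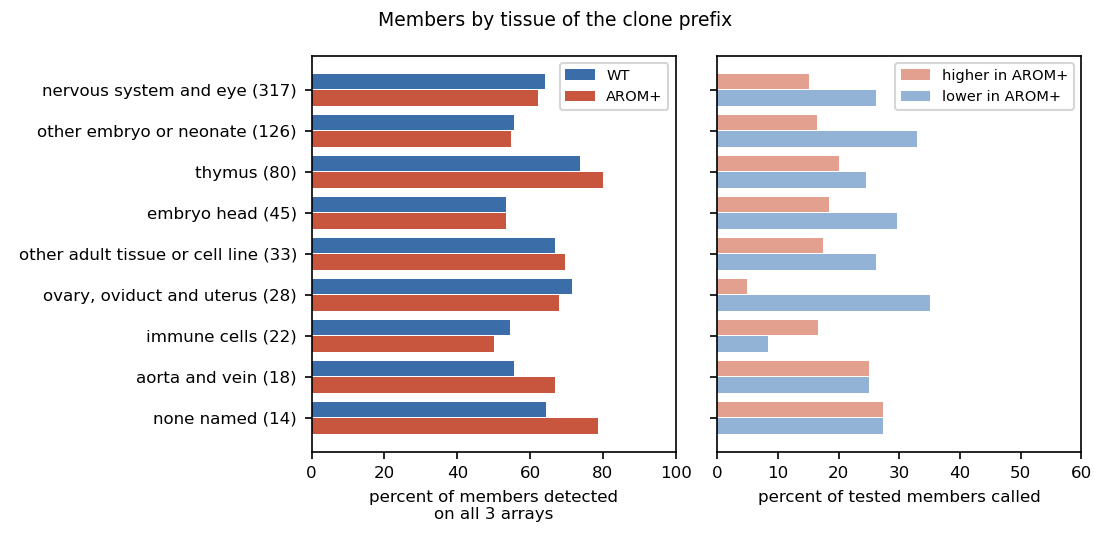
Left, percent of members detected on all 3 arrays of a group, by the tissue of the clone's library, with the number of members in parentheses. Right, percent of the tested members called higher or lower in AROM+. Thymus members were detected most often, at 73.8% in WT and 80% in AROM+, and ovary, oviduct and uterus had the lowest share of higher calls, at 5%.

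The members were also set against their class in RefSeq. Of the 683, 210 were matched by accession, 166 by symbol and 41 by synonym, and 266 were not matched. Protein-coding members were detected in WT at 80.7% (181 members), lncRNAs at 57.0% (221) and unmatched members at 55.3% (266). Of the 153 tested protein-coding members 32 were higher and 55 lower, of 130 lncRNAs 19 and 34, and of 159 unmatched members 22 and 31. Over all gene names 14.6% were higher and 31.3% lower, and the lncRNA shares of 14.6% and 26.2% lie near that. The shares were 20.9% and 35.9% for protein-coding members, and 13.8% and 19.5% for unmatched members. No difference between these classes was tested.

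When the tested members were split into 3 equal parts by mean level over all 6 arrays, 28 were higher and 18 lower in the lowest part, 26 and 42 in the middle, and 21 and 63 in the highest. Over all gene names between the same limits, 9.95% were higher and 23.2% lower at low levels, 16.1% and 25.8% in the middle and 15.2% and 34.7% at high levels. A member at low level that passed only through the group where it is high was selected towards a difference, so these shares are not support for a direction.

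Some members did not differ beyond the spread of the testes. The 3 with the brightest array sequences, A530030E21Rik, I730030J21Rik and C030007I01Rik, had differences of −0.02, −0.17 and −0.16. Gdpgp1 (D330012F22Rik), a GDP-glucose phosphorylase, read −2.22, −2.19 and −2.10 in WT and −2.32, −2.16 and −2.01 in AROM+, and the 95% interval of its difference was −0.24 to 0.26. A430105J06Rik and E430022K19Rik had differences of 0.00 with standard errors of 0.22 and 0.20.

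A further set of members was listed by name, and the list was made with earlier results of these data known. Map3k20 (B230120H23Rik), a stress-activated kinase, had −0.49 ± 0.10 (limma adjusted p = 0.0109). A130040M12Rik, whose array sequence is shared with a second clone name, rose by 0.71 ± 0.19 (limma adjusted p = 0.0237), and its call was lost when any of the WT testes was left out. A530064D06Rik rose by 1.61 ± 0.30 (limma adjusted p = 0.00834) with 2 of 3 WT arrays above background, and with normexp its difference was 0.78. A530064D06Rik entered the test only through AROM+, where it is high, so its adjusted p is not support for the rise. Cip2a and D630045J12Rik had 0.13 and 0.25 and did not pass the test, and I830077J02Rik and F630028O10Rik were too dim to be tested.

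Names set a limit on what a member stands for. Of 19 members whose current symbol is also a name on the array, 11 had both sequences tested, and in 7 of these both differences had the same sign. The clone D930026N18Rik, a synonym of the calcium channel gene Cacna1c, had 1.03 where the array's Cacna1c sequence had −0.44. B230308N11Rik had 0.62 where its gene Pds5a, a cohesin regulator, had −0.29. For Hjurp the clone had −0.51 and the gene −0.47, which did not pass the test (limma adjusted p = 0.0552). Different sequences of 1 clone name were called in opposite directions for 3 members.

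Within 50 kb of a tested member, another tested feature was found for 360. The differences of the pairs had a Pearson correlation of 0.16 and a Spearman correlation of 0.16 across pairs, which share the arrays and are not independent. Of 63 higher members with a neighbour, 9 neighbours were higher and 16 lower, and of 97 lower members, 31 neighbours were lower and 13 higher. These shares are near those over all gene names, 14.6% higher and 31.3% lower, so the neighbours are not shown to follow the members.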

How the data were processed

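The deposited files were written by Agilent Feature Extraction, whose version is 10.7.3.1 in the file headers and 10.10 in the submitters' processing notes, with probe positions on mm9. The authors deposited a background-corrected spot intensity per the file headers, and a table of log2 values. Those values lie close to log2 of that intensity minus 1 constant per array (slope 1.00, genes not centred). The residual standard deviation was 0.0345 to 0.0436 over the arrays, and the column medians were −3.41 to −3.34. Control and outlier spots (123 to 192 per array) were left out, spots of a probe were averaged, and log2 intensity minus the 75th percentile of each array was fitted with limma 3.58.1 in R 4.3.3 over 28917 gene names, with Benjamini-Hochberg adjustment. The number of arrays limits the precision. The fit was tested on simulated data. Shared array sequences were found with blastn 2.17.0. Same-numbered testes did not deviate together (correlations 0.049, −0.167 and 0.05).

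Members, groups and lists were chosen with earlier results of these data known. Named members are the 10 largest rises and falls among those called, detected on all 6 arrays and not overlapping; up to 4 largest bounds each way (3 were found upwards); the 3 brightest; the 3 with the smallest difference among members above the median level; and a set listed by name. Others are named as picked after their values were seen. RefSeq names and promoters are of GRCm38.p6. A gene symbol as neighbour was an alternative added after seeing the data.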

Additional observations from a re-analysis of the deposited data

How the results depend on the processing

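The counts of members higher and lower, the median and the named members were recomputed under 16 alternatives. No called named member changed sign. Of 664 values of the 42 tested named members, 643 kept their side of the threshold, 20 lost it and 1 gained it, and 15 of the losses came from leaving out an array. Across all alternatives 38 members stayed higher and 49 stayed lower, and no member called higher was called lower under another setting, or the reverse.

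Leaving out each array in turn gave 52 to 69 higher and 68 to 112 lower members, 21 to 32 past the 2-fold mark upwards and 5 to 9 downwards, and a median of −0.21 to −0.07. Under normexp background correction 18 members passed the 2-fold mark upwards and 1 downwards, and with members detected on all 6 arrays 3 were at least 2-fold lower. Without the filter on dim probes the median was −0.06. The causes were not tested. With the replicate block, 65 members were higher and 96 lower with a median of −0.15, and the shared numbers did not pair the testes. Asking for detection on at least 2 of 3 arrays moved the members detected in WT from 429 to 465. With symbols only as neighbours the correlation was 0.15 over 316 pairs. Differences of dim members are limited by their closeness to background.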
